A study of Mus musculus with 12 samples.

Results

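The monoamine neurons of the brain make serotonin, dopamine or noradrenaline, and 10 genes of their synthesis, transport, breakdown and identity were followed here. They were chosen by name: Tph2, Slc6a4 and Fev for serotonin neurons, Th and Slc6a3 for dopamine neurons, Dbh and Slc6a2 for noradrenaline neurons, and Ddc, Slc18a2 and Maoa for all of them. Of the 10, 9 had a probe set that the platform annotation ties to that symbol alone, with 16 such probe sets among 45101, and Fev was not analysed here. All 9 were bright enough to be tested, among 12600 of 18193 genes. The brightest probe set stood for its gene, and the others served as a check.

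RNA came from 3 samples in each of 4 groups: NR3B knockout mice at postnatal day 5 (P5KO), wild-type mice at postnatal day 5 (P5WT), NR3B knockout mice at postnatal day 0 (P0KO) and wild-type mice at postnatal day 0 (P0WT). NR3B is read as the protein of Grin3b, an NMDA receptor subunit. The sources used here name no strain, deleted exon or further allele. One label names brain, hindbrain and spinal cord together, another only brain. Samples are numbered and not tied to separate animals, so a p-value here reflects sample-to-sample spread that could be technical.

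Monoamine neurons are few and lie in small clusters: serotonin neurons in the raphe of the hindbrain, most dopamine neurons in the ventral midbrain, and noradrenaline neurons in the locus coeruleus and nearby hindbrain. An aromatic amino acid hydroxylase starts each pathway, a decarboxylase follows, a vesicular transporter loads the product, and a transporter on the cell surface takes it back up after release. Their axons spread through the brain and spinal cord around birth and continue to branch afterwards. The targeted subunit, by contrast, is known mainly from motor neurons of the brainstem and spinal cord.

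Across the 12 samples the profiles of Th and Slc6a3 ran together (Pearson r = 0.80), as did those of Tph2 and Slc6a4 (r = 0.80). The noradrenaline pair, Dbh and Slc6a2, was at r = 0.43, and the shared genes Ddc and Slc18a2 at -0.60. The strongest value of any pair was that of Slc6a3 and Slc6a2, at -0.83. These values describe arrays of 2 ages. To set the members of the dopamine and serotonin pairs side by side, the 250 bases before the start of their 4 genes are shown, from RefSeq with build GRCm38.p6. Capitals mark any of 4 motifs searched on both strands. TATAAA is a core promoter element. TGACGTCA is the cyclic AMP response element. AAAGGTCA is the response element of NR4A factors. CCGGAA is the core bound by ETS factors, the family of Fev. The stretches are chr13:73536497-73536746 on the plus strand for Slc6a3, chr7:142899996-142900245 on the minus strand for Th, chr10:115185023-115185272 on the minus strand for Tph2 and chr11:76998347-76998596 on the plus strand for Slc6a4.
Slc6a3: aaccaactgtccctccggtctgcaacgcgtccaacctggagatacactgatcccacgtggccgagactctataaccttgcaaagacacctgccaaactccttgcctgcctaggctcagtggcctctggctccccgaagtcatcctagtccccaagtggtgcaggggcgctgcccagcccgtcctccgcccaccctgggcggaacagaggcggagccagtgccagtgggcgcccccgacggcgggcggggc
Th: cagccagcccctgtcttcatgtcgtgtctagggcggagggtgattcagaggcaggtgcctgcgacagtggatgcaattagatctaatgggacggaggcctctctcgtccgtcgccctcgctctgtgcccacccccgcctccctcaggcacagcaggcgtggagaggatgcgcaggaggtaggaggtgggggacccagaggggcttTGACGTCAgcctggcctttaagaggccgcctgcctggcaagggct
Tph2: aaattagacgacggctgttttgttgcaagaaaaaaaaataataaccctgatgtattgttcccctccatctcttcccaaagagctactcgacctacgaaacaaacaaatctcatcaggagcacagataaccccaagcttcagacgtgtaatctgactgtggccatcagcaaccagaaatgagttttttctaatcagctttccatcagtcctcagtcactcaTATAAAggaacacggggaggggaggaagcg
Slc6a4: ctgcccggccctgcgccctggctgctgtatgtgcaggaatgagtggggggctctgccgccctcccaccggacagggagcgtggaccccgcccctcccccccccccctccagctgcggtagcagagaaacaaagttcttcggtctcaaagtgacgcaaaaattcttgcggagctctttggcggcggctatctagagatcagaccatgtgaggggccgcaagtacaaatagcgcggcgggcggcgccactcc
In the Th stretch, TGACGTCA began 45 bases before the start. The Tph2 stretch held TATAAA, which began 30 bases before the start. The Slc6a3 and Slc6a4 stretches held none of the 4 motifs. Among 32851 stretches of the same length in the RefSeq table, TGACGTCA stood in 1.55%, TATAAA in 12.4%, AAAGGTCA in 1.34% and CCGGAA in 12%. A match of letters is a description of the sequence and no evidence of binding.

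The samples differed in ways that touch these genes. The median SD of a gene among the 3 samples was 0.13 log2 units in P5KO, 0.12 in P5WT, 0.21 in P0KO and 0.27 in P0WT, so P0 values are less precise. The 18S ribosomal RNA probe set read 7728 in P0WT sample 1 and 48911 to 110512 in all others. The 3′ to 5′ signal ratio of beta-actin, a sign of RNA quality, was 1.58 in P0KO sample 3 and 1.48 in P0WT sample 3, against 1.19 to 1.28 in all others. The Grin3b probe set read 48.5, 39.7 and 45.4 in P5KO against 273, 168 and 155 in P5WT, and 31.4, 38.8 and 96.9 in P0KO against 353, 198 and 304 in P0WT. It lay below the filter on dim probe sets, and it was lower in every knockout sample than in every wild-type sample of its age. Tph2 lies on chromosome 10 with Grin3b, and the other 8 measured genes lie on other chromosomes.

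Between the ages, the dopamine transporter gene rose in wild type. The noradrenaline transporter gene fell in both genotypes by its brightest probe set, the only one of that gene that passed. In knockout its other probe sets gave log2 differences of -0.37, -0.08 and -0.07, with overlapping samples. Between the genotypes no measured gene of the set passed the threshold. A gene was called when its adjusted p in limma, taken over all 12600 genes, was under 0.05. In P5WT against P0WT, 2 of the 9 genes were called, 1 higher and 1 lower, where 19.3% of all genes were called. In P5KO against P0KO, 1 of 9 was called, where 10.4% of all genes were. In knockout against wild type, 0 of 9 were called at P5, at P0 and in the average over both ages, where 0.00794%, 0.0238% and 0.0238% of all genes were, and the lowest adjusted p among the 9 was 1, 0.285 and 0.574 in that order. At an unadjusted p under 0.05 there were 1, 3 and 3 of the 9 genes, against 1.84%, 16.1% and 8.67% of all genes. For the difference between the genotypes in their age change (the interaction), 0 of 9 genes and 0% of all genes were called, with 2 of 9 and 4.99% at an unadjusted p under 0.05. The age differences of the 2 genotypes come from separate samples, while each shares its P0 samples with the P0 genotype comparison. All comparisons share 1 estimate of a gene's spread, taken over the 4 groups, so the SE of a gene is the same at both ages. A limma p-value or call can therefore move when a sample outside the compared groups is left out.

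Samples of compared groups did not overlap in normalized log2 signal for 7 of 9 genes in P5WT against P0WT, 2 higher and 5 lower, where 35.3% of all genes separated. In P5KO against P0KO that held for 3 genes, 1 higher and 2 lower, where 33.3% of all genes separated. In knockout against wild type it held for 2 genes at P5, both higher, where 12.9% of all genes separated, and for 1 gene at P0, also higher, where 10.1% did. With 3 samples against 3, the smallest exact permutation p is 0.1, so a single pair of groups cannot reach 0.05 by that test. The median log2 difference of the 9 genes was -0.32 in P5WT against P0WT and -0.07 in P5KO against P0KO, against 0.03 and -0.03 over all genes. In bulk tissue, fewer cells of a type and less RNA per cell cannot be told apart.

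**Figure D1:**
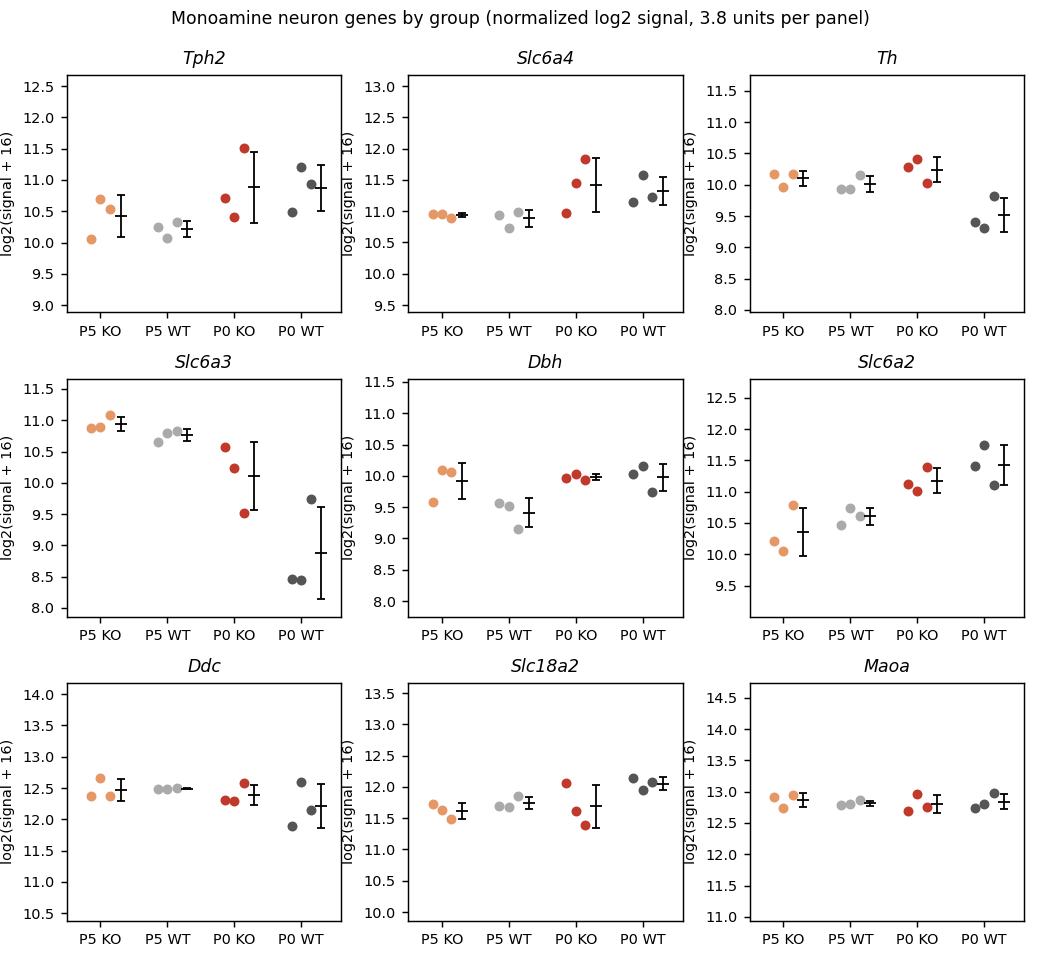
Normalized log2(signal + 16) of the 9 measured genes (vertical axis) in the 4 groups (horizontal axis), with a point per sample and, beside it, the mean and SD of 3 samples. Every P5 sample lies above every P0 sample for Slc6a3 and below every P0 sample for Slc6a2, and P0 samples spread more than P5 samples for Tph2, Slc6a4 and Slc6a3.

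**Figure D2:**
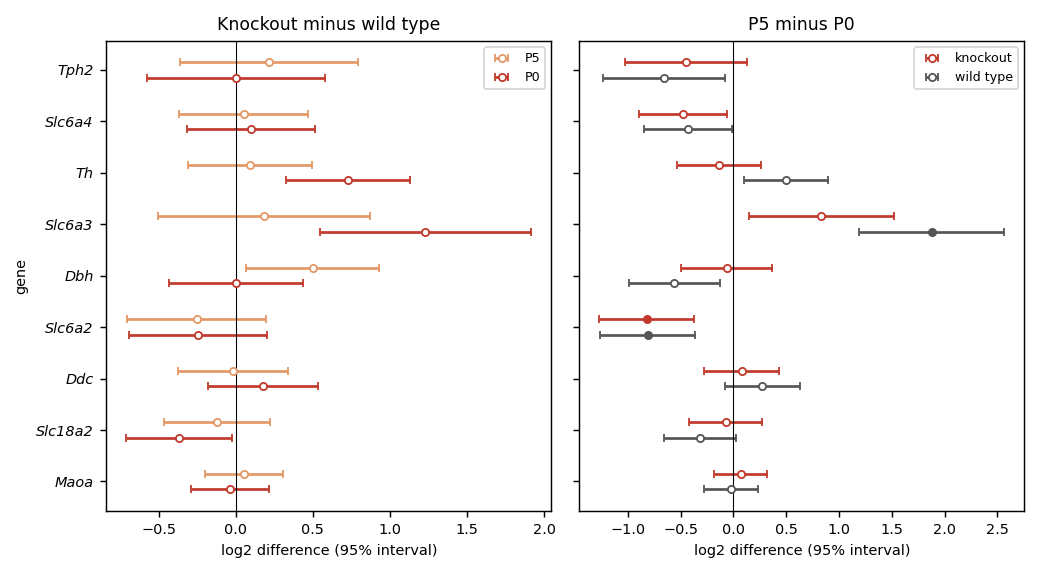
Log2 differences with 95% intervals from limma for knockout minus wild type at each age (left) and for P5 minus P0 in each genotype (right), where filled points passed the adjusted threshold. The filled points are Slc6a3 in wild type and Slc6a2 in both genotypes, and no genotype difference is filled.

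The serotonin genes did not differ detectably between the genotypes, and both read lower at P5 than at P0 without passing the threshold. Tph2 encodes the tryptophan hydroxylase that starts serotonin synthesis in neurons. Its signal was 1071, 1635 and 1435 in P5KO and 1230, 1090 and 1283 in P5WT. At P0 it was 1718, 1317 and 2760 in P0KO and 1492, 2267 and 2006 in P0WT. The genotypes overlapped at both ages, and P0KO sample 3 was the highest of all 12. Knockout minus wild type was 0.21 (SE 0.27; 95% interval -0.36 to 0.79) at P5 and 0.00 (SE 0.27; -0.57 to 0.58) at P0. P5 minus P0 was -0.66 (SE 0.27) in wild type, where the groups did not overlap (adjusted p = 0.0951), and -0.45 (SE 0.27) in knockout, where they did (adjusted p = 0.33). The wild-type difference passed with array weights, a fit that gives noisier arrays a smaller say (-0.68, adjusted p = 0.0155). That fit weighted P0WT samples 1, 2 and 3 at 0.36, 0.19 and 2.44. In it 6015 of 12600 genes passed for age in wild type and 2107 for age in knockout. The wild-type difference also passed without P0KO sample 3 (-0.66, adjusted p = 0.0491), and the knockout difference was then -0.13. P0KO sample 3 lies outside the wild-type comparison, which it reaches through normalization and the shared spread.

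Slc6a4 encodes the serotonin transporter, which takes serotonin back into the neuron. Its signal was 2020, 1975 and 1848 in P5KO and 1990, 1721 and 2054 in P5WT, against 2047, 2728 and 3483 in P0KO and 2358, 2944 and 2465 in P0WT. All 6 P5 samples lay below all P0 samples of their own genotype. P5 minus P0 was -0.48 (SE 0.19; adjusted p = 0.137) in knockout and -0.43 (SE 0.19; adjusted p = 0.124) in wild type, 1.40-fold and 1.35-fold lower. The genotype difference was 0.05 (95% interval -0.37 to 0.47) at P5 and 0.10 (95% interval -0.32 to 0.52) at P0. In knockout the age difference passed without P0KO sample 1 (-0.71, adjusted p = 0.0261) and was -0.27 without P0KO sample 3. With array weights it passed in knockout (-0.57, adjusted p = 0.0207) and in wild type (-0.35, adjusted p = 0.0455).

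The dopamine transporter gene Slc6a3 had the largest age difference of the 9 genes, in wild type. Its product clears dopamine from the synapse and marks midbrain dopamine neurons. Its signal was 1900, 1863 and 2101 in P5KO and 1627, 1795 and 1847 in P5WT. At P0 it was 1577, 1162 and 624 in P0KO and 347, 333 and 856 in P0WT. P5 samples were all above P0 samples, and P5 samples lay close together while P0 samples did not. Slc6a3 rose 3.68-fold in P5WT against P0WT, a log2 difference of 1.88 (SE 0.32; 95% interval 1.19 to 2.56; adjusted p = 0.00172), and it passed in all 20 alternatives, at adjusted p 0.000232 to 0.0364. P0WT samples 1 and 2 were the low ones, at a normalized log2 level of 8.47 and 8.45, under the 8.72 below which a mean led to a gene being left out. With P0WT sample 3 alone as the P0WT group, the difference was 1.03, and without that sample it was 2.30. The fit with the lone sample assumes that it varies like the other groups.

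In knockout the age difference of Slc6a3 was 0.83 (SE 0.32; 95% interval 0.15 to 1.52; adjusted p = 0.118), with all P5KO samples above all P0KO samples. It was 0.54 without P0KO sample 3 and 1.07 without P0KO sample 1. It passed with array weights (0.90, adjusted p = 0.0274) and without P0WT sample 3 (0.83, adjusted p = 0.0363). P0WT sample 3 lies outside this comparison, and leaving it out kept the difference at 0.83. The difference between the genotypes in their age change was -1.05 (SE 0.45), at an unadjusted p of 0.0366 and an adjusted p of 0.742, so a different age change was not shown. At P0 the knockout samples averaged 1121 ± 477 and the wild-type samples 512 ± 298 (signal, SD, n = 3 each). That P0 difference was 1.23 (SE 0.32; 95% interval 0.54 to 1.91; 2.34-fold), at an adjusted p of 0.285 and an exact permutation p of 0.2. P0WT sample 3, at 856, lay above P0KO sample 3, at 624, so the groups overlapped. Without P0WT sample 2 it passed (1.01, adjusted p = 0.0452), in a fit where 2702 genes passed, and over 20 alternatives it passed in 1. With P0WT sample 3 alone as the P0WT group it was 0.38, and the interaction was then -0.19. Without P0WT sample 3 the P0 difference was 1.65 and the interaction was -1.47. At P5 the P5KO samples lay above the P5WT samples by 0.18 (SE 0.32; 95% interval -0.50 to 0.87; adjusted p = 1). The SE is shared by all 4 groups. The SD of normalized log2 signal was 0.11 in P5KO and 0.09 in P5WT, against 0.54 in P0KO and 0.74 in P0WT. For Slc6a3 the SE is thus wide for the P5 samples and narrow for the P0 samples.

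Th encodes tyrosine hydroxylase, which starts dopamine and noradrenaline synthesis. Its signal was 1167, 966 and 1127 in P5KO and 989, 985 and 1141 in P5WT, with the genotypes overlapping. At P0 it was 1289, 1316 and 901 in P0KO and 691, 607 and 913 in P0WT. In deposited signal P0WT sample 3 lay just above P0KO sample 3, while after normalization all P0KO samples, at 10.03 to 10.41, lay above all P0WT samples, at 9.31 to 9.82. The P0 difference was 0.73 (SE 0.19; 95% interval 0.33 to 1.13; 1.65-fold; adjusted p = 0.285, exact permutation p = 0.1). It passed without P0WT sample 2 (0.62, adjusted p = 0.0422) and in none of the other 19 alternatives. It was 0.42 with P0WT sample 3 alone as the P0WT group, and 0.88 without that sample. At P5 the genotype difference was 0.09 (95% interval -0.31 to 0.49). P5 minus P0 was -0.14 (SE 0.19; adjusted p = 0.712) in knockout and 0.50 (SE 0.19; adjusted p = 0.0739) in wild type, and the interaction was -0.63 (SE 0.26; unadjusted p = 0.0306, adjusted p = 0.742). The wild-type age difference passed without P0WT sample 3 (0.65, adjusted p = 0.0427). The interaction was -0.79 without P0WT sample 3. With that sample alone as the P0WT group the wild-type age difference was 0.19, and the interaction was -0.32.

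Averaged over both ages, knockout minus wild type was 0.71 (SE 0.23) for Slc6a3 and 0.41 (SE 0.13) for Th, both at an adjusted p of 0.574, with an exact permutation p of 0.035 and 0.01. With P0WT sample 3 alone as the P0WT group these averages were 0.28 and 0.26, and without that sample they were 0.92 and 0.49. The third gene at an unadjusted p under 0.05 was Slc18a2, at -0.24 (SE 0.11; adjusted p = 0.574, exact permutation p = 0.065). The smallest exact p in the averaged comparison is 0.005, and these p-values are not adjusted for the 9 genes.

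At P0, the summed signals of meningeal and fibroblast markers and of red blood cell genes were higher in every knockout sample than in every wild-type sample. The summed signal of 8 marker genes of meninges and fibroblasts was 105701, 136640 and 122114 in P0KO against 48084, 76847 and 68532 in P0WT, while at P5 it was 129819 to 141885 in P5KO and 127258 to 145466 in P5WT. Ptgds was the largest part of that sum, at 66463 to 88469 in P0KO and 22216 to 51620 in P0WT. All 8 markers were above the filter and 0 of 8 were called in P0KO against P0WT. Their median P0 difference was 0.57, against 0.07 over all genes, with Igf2 at 0.89 and Ptgds at 1.04 (adjusted p = 0.173 and 0.175). The summed signal of 4 red blood cell genes was 2932 to 4503 in P0KO and 1181 to 2090 in P0WT, with 0 of 3 tested genes called. The 5 genes whose normalized log2 signal was most alike to that of Th over the 12 samples were Slc6a13 (a GABA transporter of meninges; Pearson r = 0.93), Cckbr (0.90), Lox (0.88), Apod (0.87) and Cdh1 (0.86). Those samples share 2 ages and 2 genotypes, so the values describe these 12 arrays. Within the P0 groups the relation to the meningeal sum was not uniform. P0KO sample 1 had the lowest sum and the highest Slc6a3 signal of its group, while P0KO sample 2 had the highest sum and the highest Th signal. P0WT sample 2 had the highest sum and the lowest Slc6a3 and Th signals of its group. The part of these markers in the Slc6a3 and Th differences was not tested.

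**Figure D3:**
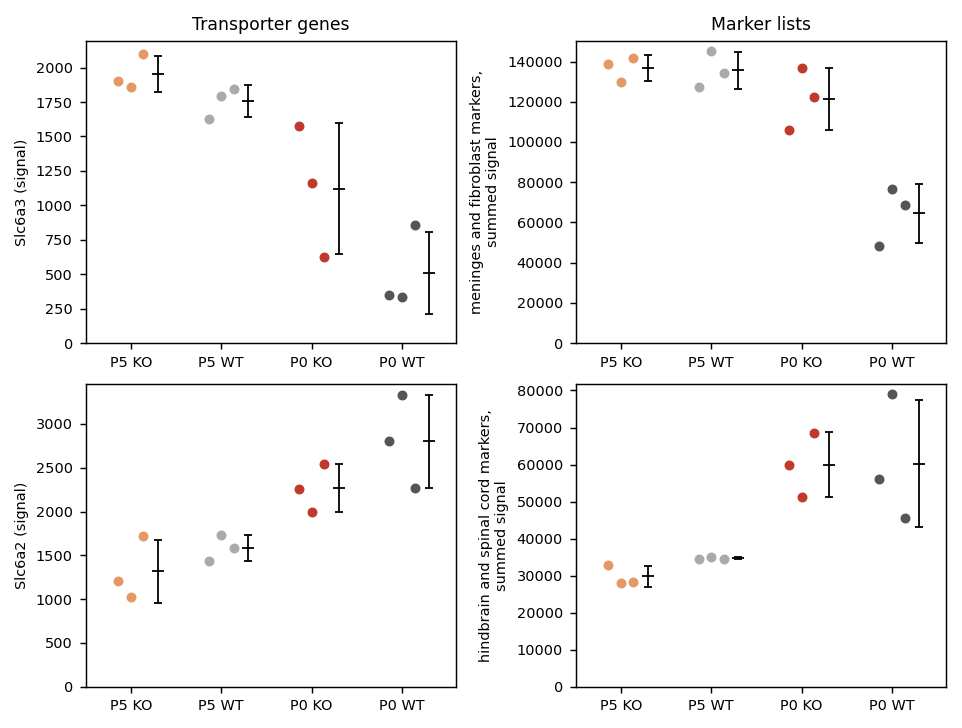
Deposited signal of Slc6a3 and Slc6a2 per sample (left, vertical axes) beside the summed signal of the meninges and fibroblast markers and of the hindbrain and spinal cord markers (right), by group on the horizontal axes, with a point per sample and the mean and SD of 3 samples. The meningeal sum is 105701 to 136640 in P0KO and 48084 to 76847 in P0WT, and both Slc6a2 and the hindbrain and spinal cord sum are lower in all P5 samples than in all P0 samples.

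By its brightest probe set, the noradrenaline transporter gene Slc6a2 fell with age in both genotypes. Its product takes noradrenaline back into locus coeruleus and sympathetic neurons. Its signal was 1210, 1030 and 1723 in P5KO against 2262, 1990 and 2543 in P0KO, and 1434, 1728 and 1578 in P5WT against 2807, 3328 and 2265 in P0WT. No P5 sample reached a P0 sample of either genotype. P5 minus P0 was -0.82 (SE 0.21; 1.77-fold lower; adjusted p = 0.0235) in knockout and -0.81 (SE 0.21; 1.76-fold lower; adjusted p = 0.0172) in wild type. The interaction was -0.01 (SE 0.30; 95% interval -0.64 to 0.63), and the genotype difference was -0.25 at P5 (95% interval -0.70 to 0.20) and -0.24 at P0 (-0.69 to 0.20). The knockout call was lost without P0KO sample 3 (adjusted p = 0.0859), P5KO sample 1 (0.09) or P5KO sample 2 (0.111). The wild-type call was lost without P5WT sample 1 (0.0704), without P5WT sample 3 (0.053) and without P0WT samples 1 and 2 together (-0.50, 0.204).

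Of 4 probe sets for Slc6a2, only the brightest passed in either genotype in the fit of all probe sets. In wild type the age difference was -0.81 for the brightest (adjusted p = 0.0385), then -0.76 (0.0678), -0.74 (0.1) and -0.25 (0.757) in order of falling brightness. In knockout it was -0.82 (adjusted p = 0.0498), -0.37 (0.483), -0.08 (0.929) and -0.07 (0.957) in the same order. The 3 brightest probe sets thus gave a like size in wild type and unlike sizes in knockout, and the dimmest lay below the filter. The mean of all 4 gave -0.34 in knockout (adjusted p = 0.263), so the size of the knockout fall is that of 1 probe set.

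Dbh encodes dopamine beta-hydroxylase, which turns dopamine into noradrenaline. Its signal was 768, 1059 and 1036 in P5KO and 766, 745 and 545 in P5WT, against 1039, 1013 and 840 in P0KO and 1080, 1094 and 857 in P0WT. P5WT was the low group, and the other 3 overlapped. Knockout minus wild type was 0.50 (SE 0.20; 95% interval 0.07 to 0.93; adjusted p = 1, exact permutation p = 0.1) at P5, with all P5KO samples above all P5WT samples, and 0.00 (95% interval -0.43 to 0.43) at P0. P5KO sample 1 and P5WT sample 1 lay 0.01 apart on the normalized log2 scale, at 9.58 and 9.57. The other probe sets gave 0.18 and 0.03 at P5. P5 minus P0 was -0.06 (SE 0.20; adjusted p = 0.887) in knockout and -0.56 (SE 0.20; adjusted p = 0.0643) in wild type.

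**Figure D4:**
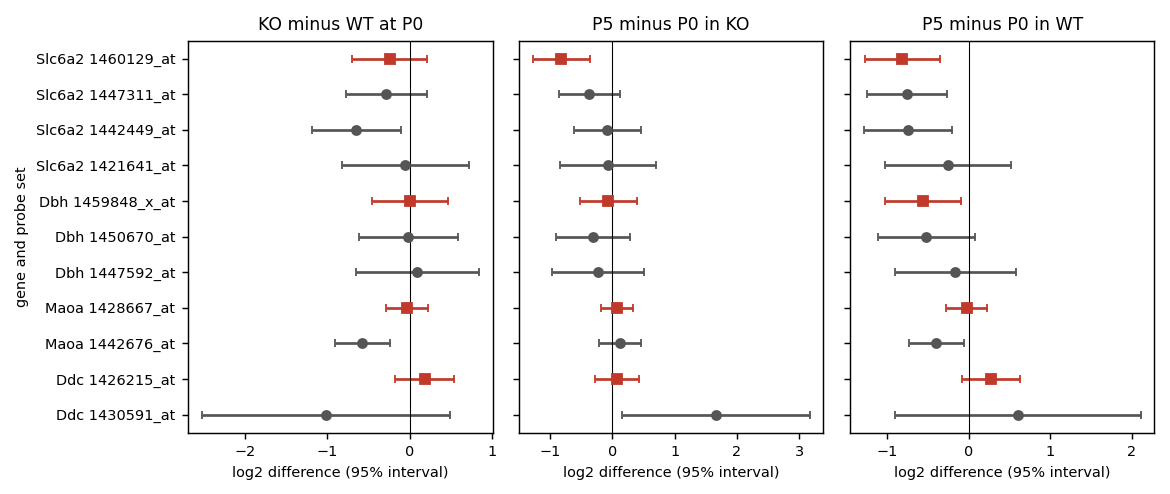
Log2 differences with 95% intervals for every probe set of the 4 genes that have more than 1, in 3 comparisons, where a red square is the brightest probe set of its gene and a grey circle another one. The 3 brightest Slc6a2 probe sets lie together in wild type and apart in knockout, and the 2 Maoa probe sets differ at P0.

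None of the genes shared by all monoamine neurons passed the threshold, and Ddc and Slc18a2 passed it only under the alternatives given with them. Ddc encodes the aromatic amino acid decarboxylase that completes serotonin and dopamine synthesis. Its signal was 5317, 6466 and 5205 in P5KO and 5714, 5720 and 5823 in P5WT, against 5046, 4868 and 6034 in P0KO and 3930, 6084 and 4634 in P0WT. All 4 groups overlapped, and the log2 differences were 0.27 in wild type and 0.08 in knockout for P5 minus P0 (SE 0.17 each), and -0.02 at P5 and 0.18 at P0 for knockout minus wild type. The wild-type age difference passed without P0WT sample 2 (0.46, adjusted p = 0.0168) and with array weights (0.34, adjusted p = 0.0200), and it was 0.12 without P0WT sample 1. Its other probe set had a mean signal of 95.2 and lay below the filter.

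Slc18a2 encodes the vesicular monoamine transporter that loads synaptic vesicles. Its signal was 3434, 3151 and 2791 in P5KO and 3318, 3260 and 3728 in P5WT, against 4254, 3060 and 2506 in P0KO and 4649, 3813 and 4410 in P0WT. P0WT was the high group, although P0KO sample 1 lay within it. Knockout minus wild type was -0.12 (SE 0.16; adjusted p = 1) at P5 and -0.37 (SE 0.16; 95% interval -0.71 to -0.02; adjusted p = 0.303) at P0. Array weights gave -0.46 at P0 (adjusted p = 0.0338) and -0.30 averaged over both ages (adjusted p = 0.0368). In that fit 3092 of 12600 genes passed at P0 and 2041 on average. P5 minus P0 was -0.07 in knockout and -0.32 in wild type (adjusted p = 0.829 and 0.17), and in wild type it passed with array weights (-0.34, adjusted p = 0.0274). The P0 genotype difference was thus opposite in sign to those of Slc6a3 and Th.

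Maoa encodes monoamine oxidase A, which breaks down serotonin and noradrenaline and is also made outside monoamine neurons. Its brightest probe set read 6607 to 8124 over all 12 samples, and the genotype difference was 0.06 (95% interval -0.20 to 0.31) at P5 and -0.04 (95% interval -0.29 to 0.22) at P0. Its second probe set read 4737, 4378 and 4461 in P5KO against 4864, 4297 and 5046 in P5WT, and 5212, 4136 and 3067 in P0KO against 6783, 5536 and 6515 in P0WT. That P0 difference was -0.58 (95% interval -0.91 to -0.24; adjusted p = 0.359 over all probe sets), with no overlap of the P0 groups, while the brightest probe set overlapped. P0KO sample 3, the lowest of all 12 in this probe set, had a beta-actin ratio of 1.58. P0WT sample 3, with a ratio of 1.48, read 6515, among the highest. The part of RNA quality in these values was not tested. The 2 probe sets disagree at P0, and the sources used here do not say which part of the transcript each reads.

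Hindbrain and spinal cord markers were lower at P5. Of the serotonin and noradrenaline genes, Slc6a2 was also lower, by its brightest probe set. Tph2 and Slc6a4 read lower without passing the threshold, and Dbh was at -0.06 in knockout and -0.56 in wild type. Of 14 tested Hox genes, which mark position along hindbrain and spinal cord, 10 fell in P5KO against P0KO and 10 fell in P5WT against P0WT, and 0 rose in either. Their median age difference was -1.04 in knockout and -0.81 in wild type, against -0.03 and 0.03 over all genes. Hoxb5 was at -1.46 in knockout and -1.11 in wild type, and Hoxb3 at -1.08 and -1.05. The summed signal of 15 Hox genes was 28033 to 32962 in P5KO and 34517 to 35054 in P5WT, against 51209 to 68652 in P0KO and 45532 to 79038 in P0WT. Within groups the relation was not uniform: the sample with the highest Hox sum had the lowest Tph2 signal of its group in P5KO and P5WT, and the highest in P0KO and P0WT. In P0KO that sample also had the lowest Dbh signal. The 5 genes most alike to Tph2 over the 12 samples were BC037032 (Pearson r = 0.92), Gle1 (0.91), Hoxd8 (0.90), Rit2 (0.90) and Klf15 (0.89). No source used here states how much of each region a sample held, and the part of these markers in the age differences was not tested.

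Forebrain markers gave 1 lower gene of 4 tested in each genotype, Bcl11b, at -0.74 in knockout and -0.96 in wild type for P5 minus P0. Of 7 general neuron markers, 2 fell in knockout (Tubb3 at -0.51 and Elavl3 at -0.48) and 2 fell in wild type (Tubb3 at -0.41 and Syt1 at -0.46). Of 7 astrocyte and endothelial markers, 5 rose in knockout and 4 in wild type, led by Gfap at 2.12 and 1.98. Meninges and fibroblast markers rose in 1 of 8 cases in knockout (Igf2 at 0.55) and in 5 of 8 in wild type (among them Igf2 at 1.49 and Ptgds at 1.20). Of 3 tested red blood cell genes, Slc4a1 rose in knockout (1.87), and Slc4a1 (2.61) and Alas2 (1.88) rose in wild type.

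Cells outside the brain that hold monoamine genes were also read. Of 10 mast cell and platelet markers, 7 lay below the filter, among them Hdc, Cpa3 and Mcpt4, and 0 of the 3 tested were called in any comparison. Below the filter and so not tested, Hdc read 69.0 to 220 in the P0 samples and 374 to 737 in the P5 samples. Tpsb2, also below it, read 126 to 269 at P0 and 290 to 433 at P5. The others below the filter overlapped between the ages, taken over both genotypes. The summed signal of the 10 markers was 10439 to 10937 in P5KO, 9583 to 11539 in P5WT, 10580 to 12093 in P0KO and 9653 to 13320 in P0WT. Kit was the largest part of that sum, at 5422 to 9421 over the 12 samples. The platelet gene Pf4 read 1725, 2809 and 3053 in P0KO against 870, 1705 and 1359 in P0WT. Its P0 difference was 0.98 (SE 0.29; adjusted p = 0.285), with Kit at -0.19 and Itga2b at 0.09. Of 8 markers of sympathetic neurons and chromaffin cells, Hand1 and Hand2 lay below the filter. Among the 6 tested, Prph, also made by motor and sensory neurons, fell in knockout (-1.41), and Prph (-1.27) and Chgb (-0.31) fell in wild type. The summed signal of the 8 markers was 34949 to 38124 in P5KO, 38527 to 39938 in P5WT, 43502 to 55426 in P0KO and 43248 to 54764 in P0WT. Chgb was the largest part of that sum, at 20018 to 30024 over the 12 samples, followed by Chga at 6833 to 10648.

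Regulators that specify monoamine neurons included calls by age. Of 8 tested transcription factors of serotonin neurons, 3 rose and 1 fell in P5KO against P0KO, and 3 rose and 2 fell in P5WT against P0WT. Lmx1b, which serotonin neurons need to form, fell by 0.94 on the log2 scale in knockout (1.92-fold, adjusted p = 0.0168) and by 0.91 in wild type (1.88-fold, adjusted p = 0.0141), and Gata2 was at -0.53 in wild type (adjusted p = 0.0476). The 3 that rose were Insm1 (3.13 in knockout and 2.82 in wild type), En2 (1.08 and 1.04) and Nkx2-2 (0.81 and 0.92), which are also made by cerebellar granule cell precursors, by the cerebellum and by the oligodendrocyte lineage. These samples are bulk tissue with a label that includes spinal cord, and which cells account for the lower Lmx1b and Gata2 was not tested. The list's median age difference was -0.20 in knockout and -0.23 in wild type. Of 6 tested dopamine neuron factors, En2 rose in knockout, and En2 and Otx2 (1.11) rose in wild type, while Pitx3 and Lmx1a lay below the filter. Of the noradrenaline neuron factors, Tlx3 and Tfap2b were tested and not called, and Phox2a and Hand2 lay below the filter.

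Among receptors and accessory genes, calls were also by age alone. Of 9 tested serotonin receptors, Htr2c rose in knockout (0.65, adjusted p = 0.0223), and Htr1a (-0.62, adjusted p = 0.0172) and Htr7 (-0.71, adjusted p = 0.0105) fell in wild type. Htr1a is the inhibitory receptor that serotonin neurons themselves carry, and Htr2c is abundant in choroid plexus. Of the dopamine receptors Drd1 and Drd2 were tested, and of the adrenergic receptors Adra1b and Adra2c, and 0 of these 4 were called. Of 12 tested cofactor, breakdown and accessory genes, Ret, a growth factor receptor of dopamine and motor neurons, fell in knockout (-0.76) and wild type (-0.86), and Sncg fell in knockout (-1.19). In knockout against wild type, 0 genes of these 7 lists were called at P5, at P0, averaged over both ages or in the interaction. Nearest to the threshold at P0 were Adra1b, an adrenergic receptor, at 0.62 (SE 0.19) and Pcbd1, which regenerates the cofactor of the hydroxylases, at 0.90 (SE 0.31), each with an adjusted p of 0.285.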

How the data were processed

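Probe set signals of 12 samples were read on Affymetrix mouse arrays. The values are an intensity on a linear scale as the authors deposited them, and no source used here names the software behind them. Leaving out the 2% highest and lowest probe sets, each array averaged 2500.01. Signals were transformed as log2(signal + 16), quantile-normalized and fitted with limma 3.58.1 in R 4.3.3, with a mean for each of 4 groups and an intensity trend in the empirical Bayes step (8 residual degrees of freedom). Control probe sets (64) were dropped, genes came from the platform annotation, the brightest probe set stood for a gene, and probe sets below the 40th percentile of mean log2 signal were left out, which left 12600 of 18193 genes. Benjamini-Hochberg adjustment ran over those 12600 genes in each of 6 comparisons, with a threshold of 0.05, and other probe sets were taken from a fit of all probe sets. Exact permutation tests were two-sided.

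The members, the 15 accessory gene and marker lists and the tests were chosen with earlier results of these data known. All members are named, with all of their probe sets described. Of each list, genes past the threshold were named (at most 4 by p), or at most 2 where none passed. The 5 genes most alike to Tph2 and to Th are given. Alternatives were the deposited scaling, a pseudocount of 64, no filter, only the compared groups, array weights, the replicate number as a block, the mean of a gene's probe sets, each other probe set, omission of P0 wild-type samples 1 and 2, and omission of each sample. The fit was checked on simulated data that gave each gene the same spread in every group. The spread of these data differs between the groups, so that check does not cover unequal spread.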

Additional observations from a re-analysis of the deposited data

How the results depend on the processing

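Of 1086 recomputed differences of the 9 genes, 59 turned in sign, none of them of a called difference, and the cause was not tested. With the deposited scaling, knockout minus wild type was -0.0396 for Tph2 and -0.0643 for Dbh at P0 and -0.00176 for Maoa averaged over both ages, and the Slc6a2 interaction was 0.00817. Array weights gave -0.0744 for Tph2 at P0 and -0.00971 for Maoa on average. The mean of all probe sets gave Ddc -0.42 at P0, 0.0121 at P5, -0.20 on average and an interaction of 0.43, Maoa -0.15 on average and a Slc6a2 interaction of 0.30. The second Ddc probe set gave -1.01 at P0, 0.0428 at P5, -0.49 on average and an interaction of 1.06, and the second Maoa probe set gave -0.0507 at P5 and -0.31 on average. The other Slc6a2 probe sets, from dimmest to brightest, gave 0.12, 0.0143 and 0.096 at P5 and interactions of 0.18, 0.67 and 0.38, and the dimmest gave 0.0334 on average. The other Dbh probe sets gave -0.020 at P0 and an interaction of -0.0654. Without P0WT samples 1 and 2, Tph2 was -0.0538 and Slc6a2 0.0664 at P0, and Maoa -0.0583 on average.

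Leaving out each sample in turn, the P0 genotype difference ran from -0.31 to 0.24 for Tph2, -0.11 to 0.33 for Slc6a4, -0.12 to 0.0919 for Dbh and -0.11 to 0.0305 for Maoa. At P5 it ran from -0.0266 to 0.0994 for Slc6a4 and -0.12 to 0.0323 for Ddc, and on average from -0.0483 to 0.23 for Tph2, -0.0280 to 0.19 for Slc6a4 and -0.0291 to 0.0434 for Maoa. P5 minus P0 ran from -0.0763 to 0.0433 for Maoa in wild type, and in knockout from -0.15 to 0.10 for Dbh, -0.0193 to 0.17 for Ddc and -0.22 to 0.11 for Slc18a2. The interaction ran from -0.0219 to 0.52 for Tph2, -0.28 to 0.16 for Slc6a4 and -0.23 to 0.15 for Slc6a2.

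For counts of called genes, leaving out each sample in turn gave 1 to 2702 genes and 0 to 2 of the 9 in knockout against wild type at P0, 0 to 3 genes at P5, 1 to 758 on average, 0 to 209 for the interaction, 650 to 1966 genes and 0 to 2 of the 9 for age in knockout, and 1202 to 4838 genes and 1 to 3 of the 9 for age in wild type. The highest gene counts came without P0WT sample 2, except at P5, where the highest came without P0KO sample 3. For the 9 genes, the highest at P0 came without P0WT sample 2, and by age in knockout without P0WT sample 3 or P0KO sample 1. By age in wild type it came without P0WT sample 2, P0WT sample 3 or P0KO sample 3. Array weights gave 3092 genes and 1 of the 9 at P0, 6 genes at P5, 2041 genes and 1 of the 9 on average, 2107 genes and 3 of the 9 for age in knockout, 6015 genes and 6 of the 9 for age in wild type, and 1528 genes for the interaction. With only the compared groups in the fit there were 0 genes at P0, 6 at P5 and 1315 for age in wild type. Without P0WT samples 1 and 2 there were 567 genes at P0, 57 on average and 12 for the interaction, and 1 of the 9 for age in wild type. The mean of all probe sets left 0 of the 9 for age in knockout. With the replicate number as a block, 1 gene was called in the average, against 3 without it, and no call among the 9 changed. The deviations of same-numbered samples correlated at r = 0.41, 0.38 and 0.03 between P0KO and P0WT, and at -0.11, -0.13 and -0.13 between P5KO and P5WT. Some P0 pairs thus deviated together and others did not, and the numbers were not taken as pairing the samples, which needed every pair above 0.1. The 3 arrays in each group limit the precision.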
